A study of Mus musculus with 6 samples.

Results

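DNA methylation and its removal were examined through 10 genes in LSK cells, the bone marrow fraction sorted for absence of lineage markers and presence of Sca-1 and c-Kit, which holds hematopoietic stem and early progenitor cells. These genes were Dnmt1, Dnmt3a, Dnmt3b, Uhrf1, Tet1, Tet2, Tet3, Asxl1, Idh1 and Idh2, and they were picked by gene symbol from the 55487 genes of the deposited table. RNA sequencing covered 6 libraries, 3 from irradiated Tespa1+/+ and 3 from irradiated Tespa1-/- mice, and the study asked how LSK cells without Tespa1 respond to irradiation. Per the labels the controls were littermates, and per the study's methods the mice were male and the Tespa1 null allele, carried by every cell of the animal and not only by LSK cells, had been backcrossed to a C57BL/6 background. The irradiation was a sublethal exposure of the whole body per the same methods, and cells were taken at a single time after it. All 6 libraries came from irradiated animals, and no library from unirradiated mice was analysed here. The sources do not say if each library stands for a single mouse or for pooled mice, so p-values measure the spread between these samples, which may be technical.

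DNA methylation places a methyl group on the cytosine of CpG dinucleotides. Dnmt1, guided by Uhrf1 to newly replicated DNA, copies the existing pattern to the new strand, while Dnmt3a and Dnmt3b write methylation at sites without it. The TET enzymes oxidise the methyl group and so open the way to its removal, and they need 2-oxoglutarate, a metabolite that Idh1 and Idh2 produce. Asxl1 is a chromatin regulator that acts with the histone H2A deubiquitinase Bap1. In blood, DNMT3A, TET2, ASXL1, IDH1 and IDH2 are known as genes that are often mutated in clonal hematopoiesis and myeloid leukemia, and loss of Dnmt3a or Tet2 in mouse stem cells is known to favour self-renewal.

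To show the DNA on which these genes start, the 250 bases before each annotated start were read from RefSeq promoters on GRCm38, and all 10 genes were matched, with 16 windows. Some of these starts lie inside the gene, such as that of the Tet3 window below, 17406 bases from the gene start annotated in GENCODE. The windows of TET and de novo methyltransferase genes that hold no annotated exon base of the gene are given here. They are written 5′ to 3′ on the strand of the gene, and capitals mark each CpG, the dinucleotide on which these enzymes act.
Tet2 (chr3:133544391-133544640, minus strand): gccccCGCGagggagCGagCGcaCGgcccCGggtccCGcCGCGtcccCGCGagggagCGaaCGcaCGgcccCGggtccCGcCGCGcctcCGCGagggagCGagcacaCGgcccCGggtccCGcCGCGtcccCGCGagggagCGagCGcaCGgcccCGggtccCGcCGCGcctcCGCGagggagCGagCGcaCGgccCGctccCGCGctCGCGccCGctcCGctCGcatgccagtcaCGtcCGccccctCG
Tet3 (chr6:83441679-83441928, minus strand): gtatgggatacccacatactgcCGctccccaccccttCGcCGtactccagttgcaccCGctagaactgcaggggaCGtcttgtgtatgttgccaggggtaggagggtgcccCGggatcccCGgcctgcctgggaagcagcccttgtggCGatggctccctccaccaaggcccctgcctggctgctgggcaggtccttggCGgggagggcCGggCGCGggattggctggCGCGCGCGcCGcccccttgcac
Dnmt3a (chr12:3806730-3806979, plus strand): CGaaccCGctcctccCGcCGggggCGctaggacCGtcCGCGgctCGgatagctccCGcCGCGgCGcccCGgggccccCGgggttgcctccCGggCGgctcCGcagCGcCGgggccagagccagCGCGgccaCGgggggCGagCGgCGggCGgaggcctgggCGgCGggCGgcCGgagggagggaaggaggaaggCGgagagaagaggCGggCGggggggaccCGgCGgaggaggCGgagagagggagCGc
Dnmt3b (chr2:153649199-153649448, plus strand): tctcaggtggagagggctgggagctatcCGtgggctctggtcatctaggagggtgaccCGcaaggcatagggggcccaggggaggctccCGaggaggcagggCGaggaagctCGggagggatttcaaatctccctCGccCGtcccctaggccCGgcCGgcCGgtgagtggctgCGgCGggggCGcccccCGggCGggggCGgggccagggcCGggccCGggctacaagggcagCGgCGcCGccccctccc
The Tet2 window held 51 CpG, and 99.9% of the 32851 RefSeq windows of this length held fewer. It is also repetitive, since 77.9% of its bases equal the base 42 positions further on. The Dnmt3a window held 38 CpG, the Dnmt3b window 21 and the Tet3 window 17, against a median of 6 over all windows. Next, 4 motifs were searched on both strands, with overlaps between different motifs allowed. An E2F-type site, spelled TTTGGCGC, TTTCCCGC or TTTCGCGC, was present in 1.53% of all windows and in 2 of the 16, namely 1 window each of Uhrf1 and Dnmt1, the maintenance pair. The match is in capitals. The start of this Dnmt1 window lies 7265 bases from the GENCODE gene start, and 166 of its 250 bases are annotated exon.
Uhrf1 (within chr17:56304063-56304312, plus strand): gagtcgggTTTCGCGCgcccaggc
Dnmt1 (within chr9:20952624-20952873, minus strand): ttccgcgcGCGCGAAAaagccggg
The E-box CACGTG, a sequence that MYC proteins among others can bind, was present in 1 of the 16 windows, a Dnmt3a window at chr12:3891494-3891743, and in 6.02% of all windows. The start of this Dnmt3a window lies 85737 bases from the GENCODE gene start. The GC box GGGCGG was present in 14 of the 16 windows against 32.7% of all windows, and CCAAT in 7 of the 16 against 33.8%. These shares were not compared at equal CpG content, and most of the 16 windows held more CpG than the median window. Windows of a gene can also overlap, as the Dnmt3a windows at chr12:3806730-3806979 and chr12:3806910-3807159 do. A match describes the letters of a window and was not tested as a binding site.

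The libraries held 12856630 to 30576981 counts. Tespa1, the targeted gene, was at 34.5, 32.7 and 36.0 CPM (counts scaled to a common library size with TMM factors) in Tespa1+/+ and at 15.3, 14.3 and 14.2 CPM in Tespa1-/- libraries, and thus was lower but still counted in every Tespa1-/- library (edgeR adjusted p 7e-06 with a log2 fold change of -1.23). The sorting genes Kit and Ly6a, which encode c-Kit and Sca-1, were counted in all 6 libraries. Of the 8 LSK and stem cell genes listed, 7 were lower in Tespa1-/- libraries, and Ly6a did not pass the test (log2 fold change -0.32, edgeR adjusted p 0.109). With the length corrections described below Ly6a passed as lower. It was at -0.65 with merged exon length (edgeR adjusted p 0.00933) and -0.45 with the length implied by counts and FPKM (edgeR adjusted p 0.0414). The summed level of these 8 genes was 1215 to 1242 CPM in Tespa1+/+ and 657 to 674 CPM in Tespa1-/- libraries. Genes of neutrophils and their precursors moved the other way, with 8 of 8 higher and a sum of 8486 to 9109 CPM against 13306 to 13705 CPM. Most of this sum was Mpo, with a mean of 7524 CPM in Tespa1+/+ and 10501 CPM in Tespa1-/- libraries (log2 fold change 0.48). The median log2 fold change of the 8 genes was far larger, at 5.99. Lcn2 rose by 3.03 (mean 15.8 against 129 CPM), S100a9 by 7.07 (0.905 against 115 CPM) and Ngp by 8.14 (0.252 against 72.0 CPM). Ltf and Camp were each at 0 in 1 Tespa1+/+ library. The sums were 12.1 to 13.2 against 27.3 to 30.6 CPM for 5 erythroid genes, of which 2 globin genes passed as higher, Klf1 as lower (log2 fold change -0.98), and Alas2 was at 0 in 1 Tespa1+/+ library. They were 40.0 to 44.3 against 32.4 to 36.0 CPM for 5 B cell genes, with 3 lower, 1 higher (Cd79b) and Ms4a1 at 0 in every Tespa1-/- library and in 1 control, and 3.17 to 3.36 against 1.37 to 1.58 CPM for 5 T cell genes, with both tested genes lower, Cd3e at 0 in every Tespa1-/- library and Cd3g at 0 in 3 of the 6 libraries. For 10 proliferation genes the sums were 3194 to 3216 against 2876 to 2914 CPM, with 5 higher, 3 lower and 2 that did not pass. With the correction for merged exon length described below, 7 of the 10 were higher and 1 lower, with a median of 0.29. Top2a then turned from -0.24 to 0.17 (edgeR adjusted p 0.00137), but it did not pass with the implied length (0.03, edgeR adjusted p 0.336). The part of these shifts in the results below was not tested, and in bulk RNA fewer cells that express a gene and less RNA per cell cannot be told apart.

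To determine whether the methylation genes differed between genotypes, all 15332 genes that passed the filter on low counts were tested with edgeR (quasi-likelihood F-test, p adjusted over all of them). All 10 genes passed the filter, with counts from 183 to 24215 per library, and 8 were lower and 2 higher in Tespa1-/- LSK cells at an adjusted p under 0.05, where 63.3% of all genes tested passed, 31.8% as lower and 31.5% as higher. The de novo methyltransferases Dnmt3a and Dnmt3b, the 3 TET genes and Asxl1 fell by more than 1.5-fold, which makes 6 of 10 genes against 19.2% of all genes tested. None of the 10 rose by that much, a call made for 14.0% of all genes tested, and calls in either direction for 33.3%. The libraries of the groups did not overlap for any of the 10 genes, 8 of which were lower and 2 higher. Over all genes tested, 69.1% had no overlap, 34.6% as lower and 34.5% as higher. The median log2 fold change was -0.79 over the 10 genes and 0 over all genes tested. Across the table fold change ran with the length of the gene, as described after the single genes. With a correction for merged exon length, 2 of the 10 genes fell by more than 1.5-fold, against 15.3% of all genes tested, and the median of the 10 was -0.22.

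**Figure D1:**
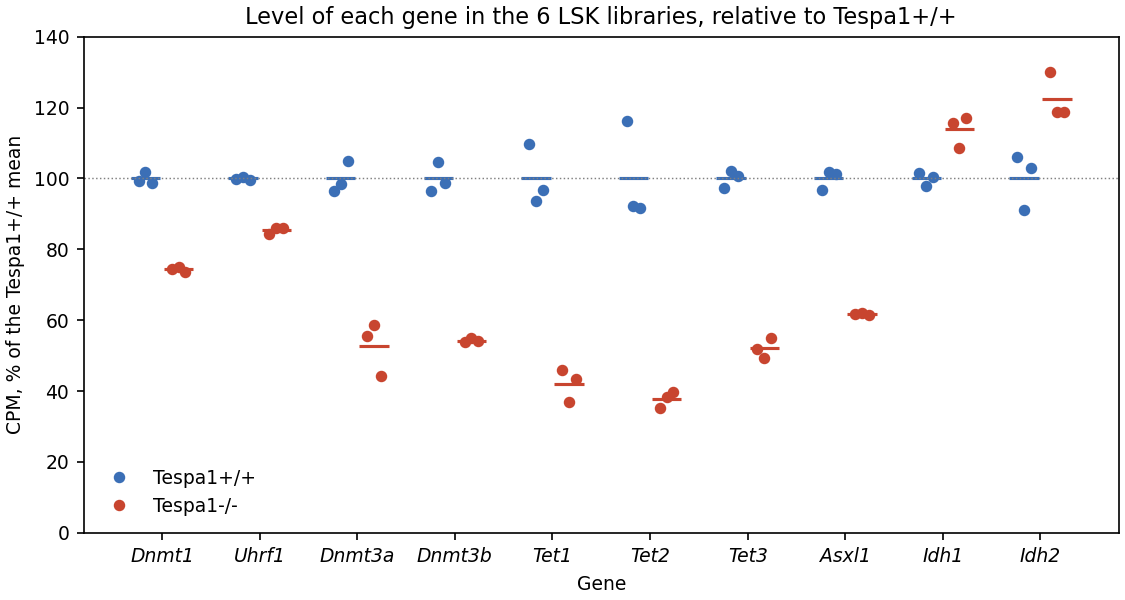
Level of each of the 10 genes in the 6 LSK libraries, as CPM in percent of the Tespa1+/+ mean; each point is 1 library and each short line a group mean (n = 3). The Tespa1-/- points of Dnmt3a, Dnmt3b and Tet1 to Tet3 lie below 60%, those of Dnmt1, Uhrf1 and Asxl1 between 60% and 90%, and those of Idh1 and Idh2 above 100%.

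Among the maintenance genes, Dnmt1 (ENSMUSG00000004099, GRCm38 chromosome 9, 20907209 to 20959888, minus strand) was at 749, 767 and 745 CPM in Tespa1+/+ and at 561, 565 and 555 CPM in Tespa1-/- libraries. The 3 Tespa1-/- libraries lay close together and below all controls. Dnmt1 therefore fell to 74.4% of the Tespa1+/+ mean (log2 fold change -0.43, SE 0.02, edgeR adjusted p 6.59e-06). Uhrf1 (ENSMUSG00000001228, chromosome 17, 56303321 to 56323486, plus strand), which reads hemimethylated DNA and recruits Dnmt1, was at 359, 361 and 359 CPM in Tespa1+/+ and at 303, 309 and 309 CPM in Tespa1-/- libraries. On this scale it was the smallest fall of the 8, to 85.4% of the control level (log2 fold change -0.23, SE 0.02, edgeR adjusted p 0.000154), yet the groups were separated by far more than their spread, with an SD of 1.52 CPM in Tespa1+/+ and 3.40 CPM in Tespa1-/- libraries (n = 3 each). Since Uhrf1 fell less than Dnmt1, its FPKM ratio to Dnmt1 was higher in every Tespa1-/- library, at 0.944, 0.954 and 0.973 against 0.837, 0.823 and 0.840. The log2 ratio differed by 0.20 (two-sided exact permutation p 0.1, adjusted p 0.2 over 6 ratios), and 0.1 is the smallest p that 3 against 3 samples allow. The order depends on length, since with the merged exon length correction Dnmt1 fell less than Uhrf1 (log2 fold change -0.11 against -0.18), and with the implied length, taken from counts and FPKM, the ratio differed by -0.03.

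The partners of maintenance moved in no common direction. Of 7 genes listed, 2 were higher, 1 was lower and 4 did not pass (Uhrf2, Hells, Cdca7 and Lig1), with a median log2 fold change of -0.03. With TMM scaling Pcna, the replication clamp on which Dnmt1 rides, rose slightly (log2 fold change 0.23, SE 0.03, edgeR adjusted p 0.000216), and Usp7, a deubiquitinase that stabilises Dnmt1 and Uhrf1, fell (log2 fold change -0.27, SE 0.09, edgeR adjusted p 0.0349). After the correction for merged exon length neither passed, with Usp7 at 0.07 (edgeR adjusted p 0.538) and Pcna at 0.06 (edgeR adjusted p 0.0972). With the implied length Pcna passed as higher (0.11, edgeR adjusted p 0.0156) and Usp7 did not pass (0.06, edgeR adjusted p 0.574). Dnmt3l, the catalytically inactive partner of the de novo enzymes, was the other gene that rose with TMM scaling, from low counts of 13 to 33 per library (log2 fold change 1.11, SE 0.18, edgeR adjusted p 0.00143). Hells passed as higher with merged exon length (0.20, edgeR adjusted p 0.0131) but not with the implied length (0.06, edgeR adjusted p 0.382). Cdca7 passed as lower with both (-0.11 each, edgeR adjusted p 0.0231 and 0.0199). Of the 7 methyl-CpG readers, 5 were lower and 2 higher, with a median of -0.31. With TMM scaling Zbtb38 fell (log2 fold change -0.35), while Mbd2 and Mbd3, alternative subunits of the NuRD corepressor complex, rose (0.33 and 0.36). The direction of Zbtb38 turned with the length corrections, to 0.19 (edgeR adjusted p 0.116) with merged exon length and to 0.31 (edgeR adjusted p 0.0212) with the implied length. Mbd2 still passed with merged exon length (0.25, edgeR adjusted p 0.00463) and Mbd3 did not (0.14, edgeR adjusted p 0.0665). With the implied length both passed, Mbd2 at 0.24 (edgeR adjusted p 0.00517) and Mbd3 at 0.27 (edgeR adjusted p 0.00416).

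To compare the enzymes that write methylation at new sites, Dnmt3a and Dnmt3b were examined side by side. Dnmt3a (ENSMUSG00000020661, chromosome 12, 3806007 to 3914443, plus strand) was at 149, 152 and 162 CPM in Tespa1+/+ and at 85.5, 90.3 and 68.1 CPM in Tespa1-/- libraries. All Tespa1-/- libraries were below the controls, and replicate 3 lay apart from the other two, so that the coefficient of variation was 14.3% in Tespa1-/- against 4.44% in Tespa1+/+ libraries. Dnmt3a fell 1.89-fold (log2 fold change -0.92, SE 0.10, edgeR adjusted p 0.00017), and the log2 fold change was -0.80 without Tespa1-/- replicate 3. Dnmt3b (ENSMUSG00000027478, chromosome 2, 153649450 to 153687730, plus strand) was at 110.3, 119.5 and 113 CPM in Tespa1+/+ and at 61.5, 62.7 and 61.7 CPM in Tespa1-/- libraries. Here the Tespa1-/- libraries nearly coincided. Dnmt3b fell 1.84-fold (log2 fold change -0.88, SE 0.04, edgeR adjusted p 4.09e-06). With TMM scaling a difference between the falls was not detectable, as the log2 ratio of Dnmt3a to Dnmt3b changed by -0.05 (SD 0.09 in Tespa1+/+ and 0.21 in Tespa1-/-, n = 3 each, two-sided exact permutation p 0.9). The sign of this difference turned without Tespa1-/- replicate 3, where it was 0.07. With the length corrections Dnmt3a no longer passed (log2 fold change -0.21 with merged exon length and -0.15 with the implied length, edgeR adjusted p 0.123 and 0.267), while Dnmt3b did (-0.75 and -0.69). With the implied length the log2 ratio of Dnmt3a to Dnmt3b differed by 0.53 (two-sided exact permutation p adjusted over 6 ratios 0.3).

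Turning to demethylation, all 3 TET genes fell. Tet2 (ENSMUSG00000040943, chromosome 3, 133463679 to 133545139, minus strand) went from 120.2, 95.4 and 94.7 CPM in Tespa1+/+ to 36.4, 39.6 and 41.0 CPM in Tespa1-/- libraries. It had the largest fall of the 10 genes with TMM scaling, but with either length correction Dnmt3b fell more. Replicate 1 stood above the other two controls, and every Tespa1-/- library was far below all of them. The fall was 2.65-fold (log2 fold change -1.41, SE 0.10, edgeR adjusted p 2.53e-05), and the log2 fold change was -1.29 without Tespa1+/+ replicate 1. Of all genes tested, 5.64% had a lower log2 fold change. Tet1 (ENSMUSG00000047146, chromosome 10, 62804570 to 62908996, minus strand) was at 37.3, 31.9 and 32.9 CPM in Tespa1+/+ and at 15.6, 12.6 and 14.8 CPM in Tespa1-/- libraries, a 2.37-fold fall with no overlap (log2 fold change -1.25, SE 0.10, edgeR adjusted p 4.3e-05). Tet1 was the most sparsely counted of the 10 genes, and its lowest count of 183 alone gives a counting error of 7.39%, next to a spread of 8.52% in Tespa1+/+ and 10.8% in Tespa1-/- libraries. Tet3 (ENSMUSG00000034832, chromosome 6, 83362373 to 83459084, minus strand) was at 170.4, 179 and 176 CPM in Tespa1+/+ and at 91.0, 86.7 and 96.1 CPM in Tespa1-/- libraries. It fell less than the other two, 1.92-fold (log2 fold change -0.94, SE 0.05, edgeR adjusted p 4.49e-06).

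On the per-length FPKM scale, the summed level of the 3 TET genes was 14.2 ± 0.400 in Tespa1+/+ and 6.33 ± 0.297 in Tespa1-/- libraries (SD, n = 3 each). FPKM divides by 1 fixed length per gene, so it keeps the trend of fold change with length. After the merged exon length correction the log2 fold changes of Tet1, Tet2 and Tet3 were -0.57, -0.69 and -0.23. Tet3 held the most of it in every library, from 62.9% to 68.8% in Tespa1+/+ and from 72.3% to 73.3% in Tespa1-/- libraries. The share of Tet2 was 25.0% ± 2.82 against 19.8% ± 1.18, and that of Tet1 8.25% ± 0.495 against 7.29% ± 0.671 (SD, n = 3 each). In Tespa1+/+ libraries the ratio of Tet2 to Tet3 was 0.449, 0.339 and 0.342, and in Tespa1-/- libraries it was lower without overlap, at 0.255, 0.291 and 0.271 (log2 difference -0.46, two-sided exact permutation p 0.1, adjusted p 0.2). This difference was -0.24 with the implied length correction and -0.11 with 1 added to each FPKM. The ratio of Tet3 to Tet1 was higher in all Tespa1-/- libraries (log2 difference 0.31, exact permutation p 0.1, adjusted p 0.2) but turned to -0.33 with 1 added to each FPKM, and that of Tet2 to Tet1 overlapped between groups (log2 difference -0.15, exact permutation p 0.4).

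Genes that work with the TET enzymes were compared next. Of 5 TET partners listed, 2 could be tested and both fell. Ogt, the O-GlcNAc transferase that binds TET proteins, was at 136, 129.9 and 132 CPM in Tespa1+/+ and at 57.5, 52.1 and 61.9 CPM in Tespa1-/- libraries, without overlap (log2 fold change -1.21, SE 0.06, edgeR adjusted p 5.85e-06). Cxxc5 fell too (log2 fold change -0.59, SE 0.07, edgeR adjusted p 0.000275), whereas Cxxc4, Dppa3 and Wt1 had at most 2 counts in any library. Downstream of oxidation, the base excision list split evenly, with 2 of 8 tested genes higher, 2 lower and a median of -0.10. Tdg, the glycosylase that removes oxidised 5-methylcytosine, was at 22.2 ± 2.86 CPM in Tespa1+/+ and 18.7 ± 1.57 CPM in Tespa1-/- libraries (SD, n = 3 each), and the groups overlapped (log2 fold change -0.24, edgeR adjusted p 0.103). With TMM scaling Mbd4, Smug1 and Xrcc1 did not pass either. Xrcc1 passed as higher with both length corrections, at 0.35 with merged exon length (edgeR adjusted p 0.00349) and 0.38 with the implied length (edgeR adjusted p 0.00239). With merged exon length the list had 3 genes higher and 1 lower. Apex1 and Polb rose (log2 fold change 0.46 and 0.33), and Lig3 and Parp1 fell (-0.62 and -0.21). The 2 length corrections differed for both falls. Parp1 did not pass with merged exon length (-0.06, edgeR adjusted p 0.105) but did with the implied length (-0.11, edgeR adjusted p 0.0171). Lig3 passed with merged exon length (-0.31, edgeR adjusted p 0.00492) but not with the implied length (-0.13, edgeR adjusted p 0.112).

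Asxl1 (ENSMUSG00000042548, chromosome 2, 153345829 to 153404007, plus strand) was at 181, 191 and 190.0 CPM in Tespa1+/+ and at 116, 116 and 115 CPM in Tespa1-/- libraries. The Tespa1-/- values were nearly identical, with a coefficient of variation of 0.42%, and lay below all controls. Asxl1 fell 1.62-fold (log2 fold change -0.70, SE 0.03, edgeR adjusted p 4.23e-06). On the opposite strand, the exons of 2500004C02Rik share 197 bases with those of Asxl1, and its counts were 29 to 80. Whether counting used the strand was not stated, but even the full count of that gene is small beside the 1429 to 6031 counts of Asxl1. Of 7 tested genes that form or bind the ASXL and BAP1 complex, 5 fell and none rose, with a median of -0.74. Asxl2, the close relative of Asxl1, was at 82.3, 79.3 and 96.3 CPM in Tespa1+/+ and at 28.7, 29.2 and 30.7 CPM in Tespa1-/- libraries, a larger fall than that of any of the 10 genes (log2 fold change -1.54, SE 0.08, edgeR adjusted p 5.99e-06). Hcfc1, Mbd5 and Foxk1 fell as well (log2 fold change -1.06, -0.80 and -0.74). After the merged exon length correction Hcfc1 was at -0.69 and Foxk1 at -0.41, while Mbd5 was at -0.01 (edgeR adjusted p 0.959). Bap1, the catalytic subunit, was at 121 ± 4.70 CPM in Tespa1+/+ and 119 ± 3.58 CPM in Tespa1-/- libraries (SD, n = 3 each), a difference within the spread (log2 fold change -0.03, edgeR adjusted p 0.553) that came to 0.16 with the implied length correction (edgeR adjusted p 0.0146), and Foxk2 did not pass (-0.07, edgeR adjusted p 0.15).

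The IDH genes were the only members of the 10 that rose, and both rose slightly. Idh1 (ENSMUSG00000025950, chromosome 1, 65158616 to 65186500, minus strand), the cytosolic enzyme, was at 88.1, 85.0 and 87.3 CPM in Tespa1+/+ and at 101, 94.4 and 102 CPM in Tespa1-/- libraries. Idh2 (ENSMUSG00000030541, chromosome 7, 80094846 to 80115392, minus strand), its mitochondrial counterpart, was at 298, 256 and 289 CPM in Tespa1+/+ and at 365, 334 and 334 CPM in Tespa1-/- libraries. In both genes the lowest Tespa1-/- library lay above the highest control. The log2 fold change was 0.19 for Idh1 (SE 0.04, edgeR adjusted p 0.00627) and 0.29 for Idh2 (SE 0.06, edgeR adjusted p 0.00536). Both calls depend on the scaling, that of Idh1 more. With total counts in place of TMM factors, which shifts the median of all genes by -0.10, Idh1 did not pass (0.09, edgeR adjusted p 0.111) and Idh2 did (0.19, edgeR adjusted p 0.0326). With the implied length Idh1 did not pass (0.12, edgeR adjusted p 0.0517) and Idh2 did (0.26, edgeR adjusted p 0.0108). With the merged exon length correction neither gene passed. The ratio of Idh1 to Idh2 overlapped between groups (log2 difference -0.11, two-sided exact permutation p 0.3).

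Enzymes that make or use 2-oxoglutarate, succinate and fumarate were mostly higher, with 9 of 15 genes higher, 1 lower and a median of 0.30. The succinate dehydrogenase subunits Sdhd and Sdhc rose (log2 fold change 0.66 and 0.55), as did Got2, the mitochondrial aspartate aminotransferase (0.49), and Fh1, the fumarase (0.46). Ogdh, which consumes 2-oxoglutarate in the citric acid cycle, was the gene that fell (-0.35, SE 0.03, edgeR adjusted p 7.15e-05). The S-adenosylmethionine cycle, which supplies the methyl group for the DNMT enzymes, was split, with 3 of 9 genes higher, 3 lower and a median of -0.28. Ahcy, which clears the product inhibitor S-adenosylhomocysteine, rose (0.61), as did Mat2b (0.48), while Ahcyl2 and the methionine synthase gene Mtr fell (-0.77 and -0.51). After the merged exon length correction Ahcyl2 was at -0.02 (edgeR adjusted p 0.91) and Mtr at -0.13 (edgeR adjusted p 0.0216). Mat2a, the catalytic subunit that makes S-adenosylmethionine, did not pass, since Tespa1-/- replicate 3 was at 151 CPM and replicates 1 and 2 at 76.0 and 71.4 CPM (log2 fold change -0.52, SE 0.29, edgeR adjusted p 0.158).

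**Figure D2:**
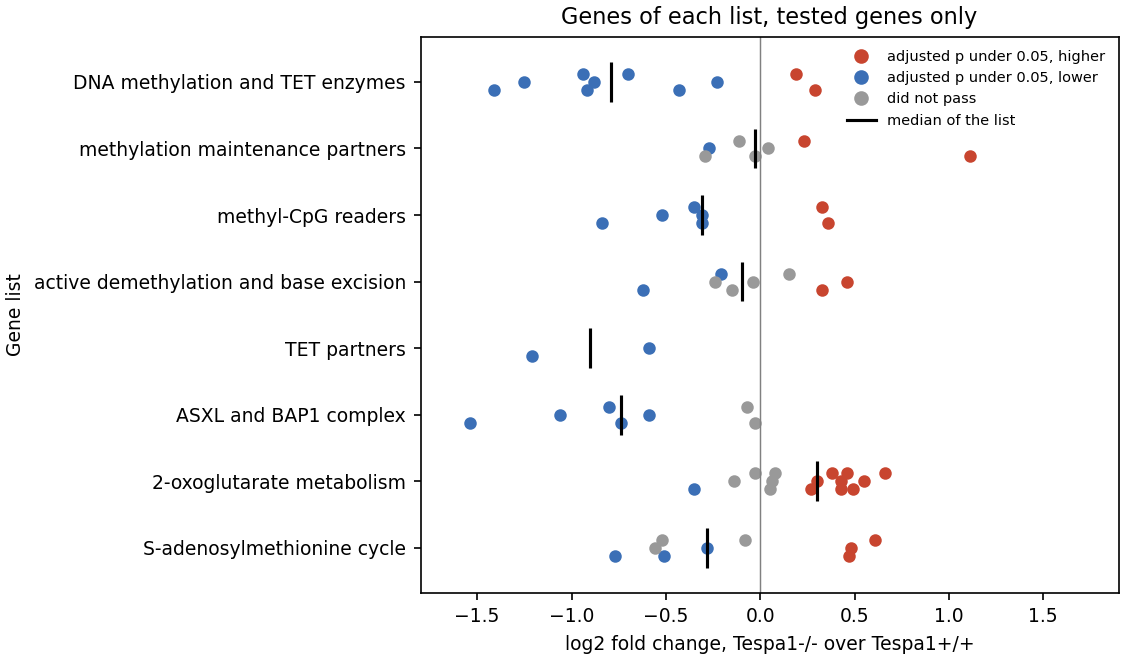
Log2 fold change (Tespa1-/- over Tespa1+/+) of the tested genes of the 10-gene set and of the 7 lists of related genes; each point is 1 gene, colours give the edgeR call at an adjusted p under 0.05, and the bar marks the median of a list. The 10 genes, the TET partners and the ASXL and BAP1 complex have medians of -0.79, -0.90 and -0.74, and the 2-oxoglutarate list has 0.30.

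To place the 10 genes relative to each other, the deposited FPKM values, which are scaled per length, were compared within each genotype. In Tespa1+/+ libraries the order of the mean FPKM was Dnmt1 (84.1), Uhrf1 (70.1), Idh2 (56.3), Asxl1 (22.8), Idh1 (19.9), Dnmt3b (13.1), Tet3 (9.49), Dnmt3a (5.45), Tet2 (3.57) and Tet1 (1.18). No neighbours in this order had overlapping ranges over the 3 libraries. In Tespa1-/- libraries Idh2 (64.3) came before Dnmt1 (58.4) and Uhrf1 (55.9), and Idh1 (21.1) before Asxl1 (13.1), while Dnmt3b (6.64), Tet3 (4.61), Dnmt3a (2.68), Tet2 (1.25) and Tet1 (0.462) followed in the same order as before, again with no overlap between neighbours. Maintenance thus outweighed de novo methyltransferase RNA in both genotypes. Dnmt1 held 81.9% ± 0.376 of the summed FPKM of the 3 DNMT genes in Tespa1+/+ and 86.2% ± 0.433 in Tespa1-/- libraries, and the sum of Dnmt3a and Dnmt3b was 18.6 ± 0.567 against 9.33 ± 0.430 (SD, n = 3 each). These FPKM values keep the trend of fold change with length. After the merged exon length correction the log2 fold changes of Dnmt1, Dnmt3a and Dnmt3b were -0.11, -0.21 and -0.75. The order depends on the length that is divided by. The length implied by the deposited values was 29974 bases for Tet2, against 16870 bases for its merged annotated exons. Per merged exon length, Idh2 and Dnmt1 came first with overlapping ranges in Tespa1+/+ libraries (102 to 119 and 104 to 107 on the FPKM scale), Idh1 came before Asxl1, and Tet3 and Dnmt3a overlapped in Tespa1-/- libraries.

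**Figure D3:**
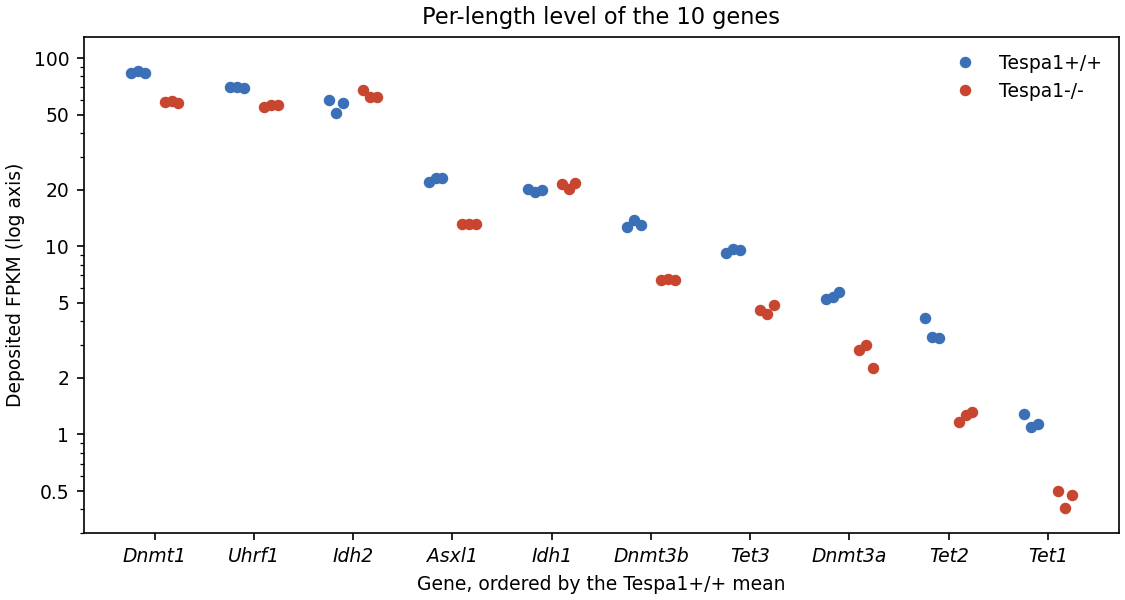
Deposited FPKM of the 10 genes on a log axis, ordered by the Tespa1+/+ mean; each point is 1 library. Levels run from 85.5 for Dnmt1 to 0.407 for Tet1, and the Tespa1-/- points are below the Tespa1+/+ points for every gene except Idh1 and Idh2, where the FPKM values of Idh1 overlap between groups.

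Finally, the falls were set against gene length, because fold change across the whole table ran with it. Merged exon length and log2 fold change had a Spearman's rho of -0.62 over the 10025 genes above a mean log2 CPM of 3, given as a description since genes share libraries. When these genes were ranked by length and cut into 10 equal groups, the shortest group had a median of 0.64 and the longest, at a median length of 12376 bases, one of -0.55. The order of the members mostly follows this trend, though several lie below it. Tet1, Dnmt3a, Tet3 and Tet2 have merged exons of 15457, 16642, 16695 and 16870 bases, Asxl1 and Dnmt1 of 7444 and 7377, Dnmt3b of 5106, Uhrf1 of 4259, and Idh1 and Idh2, which rose, of 2771 and 2588. Dnmt3b stands out of the order, since the 2 length groups nearest to it had medians of -0.02 and -0.12 against its -0.88. Asxl1 at -0.70 and Dnmt1 at -0.43 were also below their nearest groups, which had medians of -0.23 and -0.34. Uhrf1 at -0.23 was below nearest medians of 0.08 and -0.02.

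**Figure D4:**
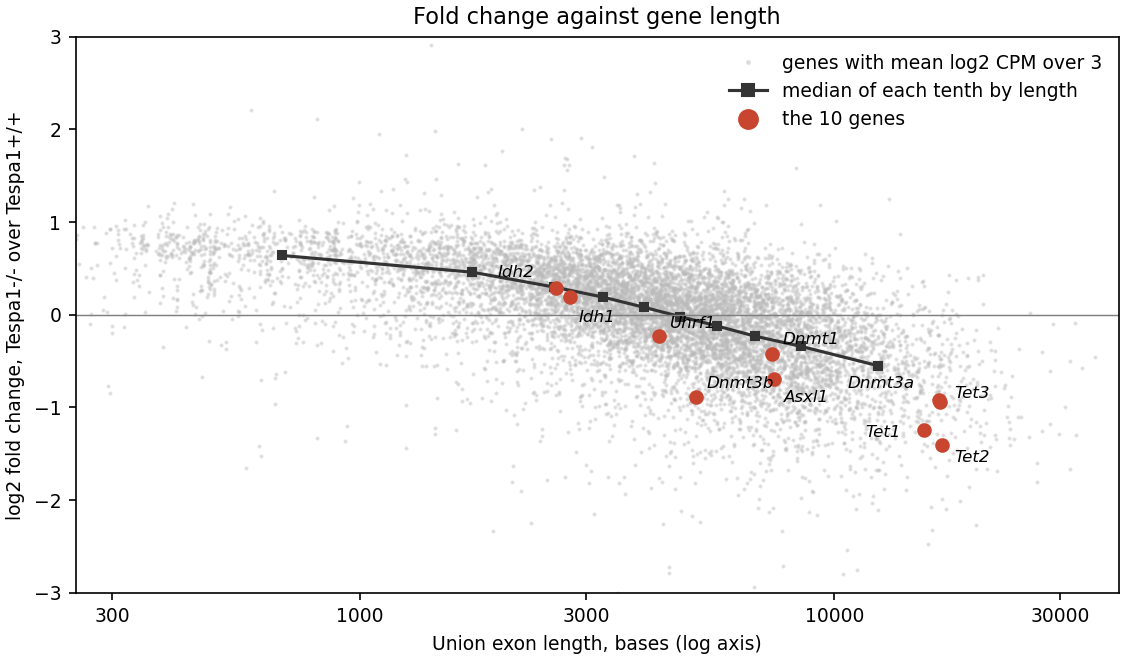
Log2 fold change (Tespa1-/- over Tespa1+/+) against merged (union) exon length in bases on a log axis, for 10025 genes; squares are medians of 10 equal groups by length and red points the 10 genes, and the plotted range stops at 3 in both directions. The medians go from 0.64 to -0.55, and the 4 longest members lie below the median of the longest group.

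When the trend with merged exon length was removed by an offset in the edgeR fit, the median log2 fold change of the 10 genes was -0.22 in place of -0.79, 7 passed the test as lower and none as higher, where 26.5% and 30.4% of all genes tested did, and 2 fell by more than 1.5-fold, where 15.3% did. These were Dnmt3b (log2 fold change -0.75, SE 0.04, edgeR adjusted p 1.54e-05) and Tet2 (-0.69, SE 0.10, edgeR adjusted p 0.000875). Tet1 was at -0.57 (edgeR adjusted p 0.00198), Asxl1 at -0.38 (edgeR adjusted p 0.000126), Tet3 at -0.23 (edgeR adjusted p 0.004), Uhrf1 at -0.18 (edgeR adjusted p 0.000793) and Dnmt1 at -0.11 (edgeR adjusted p 0.00698). Dnmt3a did not pass (-0.21, SE 0.10, edgeR adjusted p 0.123), nor did Idh1 (0.06, edgeR adjusted p 0.274) and Idh2 (0.14, edgeR adjusted p 0.099). With the other length, that implied by the FPKM values, Dnmt3a was at -0.15 (edgeR adjusted p 0.267) and the same 2 genes fell by more than 1.5-fold, against 15.9% of all genes tested, with Dnmt3b at -0.69 and Tet2 at -0.62. Among the related lists, both TET partners and 4 of the ASXL and BAP1 genes still passed as lower after the correction, 11 of 15 genes of 2-oxoglutarate metabolism passed as higher, and the methyl-CpG readers went from 5 lower to 1. Whether the trend with length arose in the cells or in the libraries cannot be told apart in these samples.

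**Figure D5:**
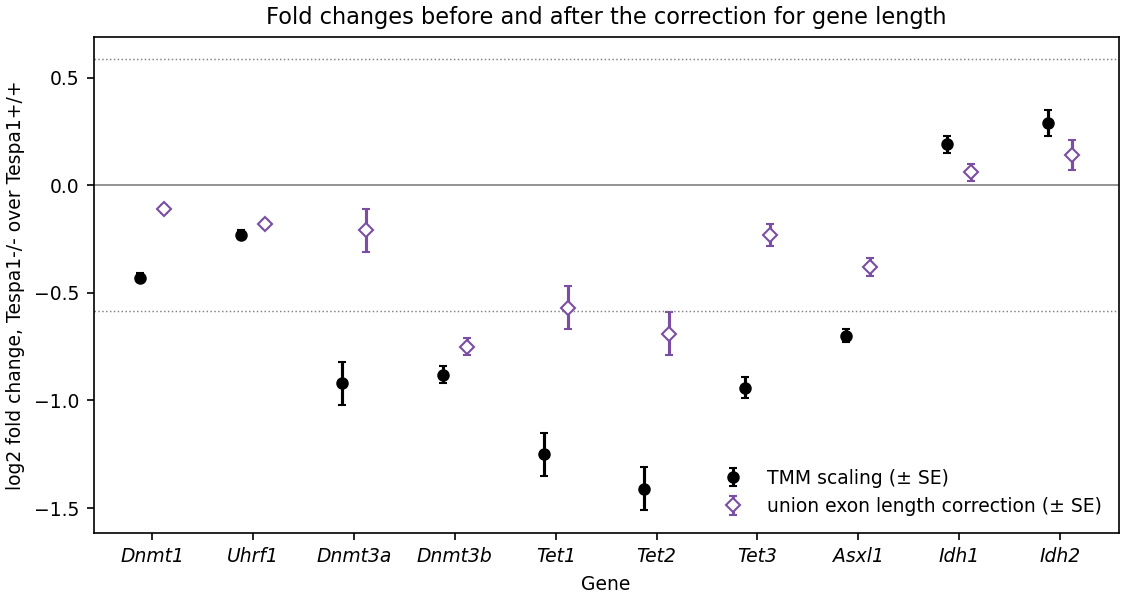
Log2 fold change of the 10 genes with TMM scaling (filled) and after the correction for merged exon length (open), with bars of 1 SE; dotted lines mark a fold of 1.5 in either direction. After the correction, Dnmt3b and Tet2 are past the lower line, and Dnmt3a is at -0.21.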

How the data were processed

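RNA of LSK cells from irradiated Tespa1+/+ and Tespa1-/- mice was sequenced as 3 stranded poly-A libraries per genotype. The authors deposited 1 table of 55487 genes with, per library, a raw count and an FPKM value (the count divided by 1 fixed length per gene and scaled to the library total). The submitters' processing notes name CASAVA 1.8, HISAT2, StringTie, edgeR and GRCm38. Their roles and whether counting used the strand are not given in the sources used here, and without molecular identifiers PCR copies count as reads, so the depth covers counting error only.

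The counts were filtered with filterByExpr, scaled with TMM and compared by the quasi-likelihood F-test of edgeR 4.0.16 under R 4.3.3, with Benjamini-Hochberg adjustment over 15332 genes. A gene passed at an adjusted p under 0.05. The 6 FPKM ratios were compared by exact permutation. Positions and merged exon lengths came from GENCODE M21, and promoters from RefSeq. The length correction was a loess fit (span 0.5) of each library's log2 CPM deviation on log length, used as an offset. The scripts were tested on simulated data.

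The members and gene lists were chosen with earlier results of these data known. Named list genes had an adjusted p under 0.05, a mean count of at least 100 and no overlap between groups, up to 4 per list by size of change, and 2 list genes are not reported here by name. Added to these were genes that did not pass and were singled out by a count of 5 or fewer. Dnmt3l, with too low a count for that rule, and the opposite-strand gene of Asxl1 were named after their values were seen. Alternatives were RLE factors, total counts, other filters, DESeq2 1.42.0, glmTreat, limma 3.58.1 on log2(FPKM + 1) and log2(FPKM + 0.1), a replicate block, each replicate left out, and 2 length corrections.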

Additional observations from a re-analysis of the deposited data

How the results depend on the processing

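Dnmt3b, Tet1, Tet2, Tet3 and Asxl1 stayed lower at an adjusted p under 0.05 in all 18 alternatives, though not past a fold of 1.5 in all, with log2 fold changes of -0.98 to -0.69, -1.35 to -0.46, -1.51 to -0.62, -1.04 to -0.23 and -0.80 to -0.38. Tests against a fold of 1.5 (glmTreat) left 1020 genes higher and 1807 lower, and Dnmt1 (-0.43), Uhrf1 (-0.23), Idh1 (0.19) and Idh2 (0.29) had an adjusted p of 1. Genes called in either direction were then 0 readers, 0 in base excision, 1 TET partner, 3 in the ASXL complex, 0 in 2-oxoglutarate metabolism and 0 in the S-adenosylmethionine cycle. Total counts gave Idh1 0.09 (adjusted p 0.111), 2 readers and 0 2-oxoglutarate genes, and 29.8% of calls were higher in place of 42.1%; at least 10 counts in every sample gave 1 gene of the S-adenosylmethionine cycle. Limma on log2(FPKM + 1) called 1070 genes higher and 1626 lower, with Idh1 at 0.08 (adjusted p 0.103) and 0 genes in the maintenance, reader, 2-oxoglutarate and S-adenosylmethionine lists. With 0.1 added it called 1365 higher, Idh1 was at 0.09 (adjusted p 0.103), and the maintenance, 2-oxoglutarate and S-adenosylmethionine lists had 0, 0 and 1. The merged exon length correction called 1257 genes higher and 2 members lower. Dnmt3a was at -0.21 (adjusted p 0.123), Idh1 at 0.06 (0.274) and Idh2 at 0.14 (0.099), and the reader, base excision, ASXL, 2-oxoglutarate and S-adenosylmethionine lists had 0, 0, 2, 2 and 1. The implied length gave 1402 genes higher, 2 members lower, Dnmt3a -0.15 (0.267) and Idh1 0.12 (0.0517). The reader, base excision, TET partner, ASXL and S-adenosylmethionine lists had 0, 0, 1, 3 and 0. With a replicate block added to it these counts were 1390, 2, and 0, 0, 1, 3 and 0, with Dnmt3a at -0.16 (0.291) and Idh1 at 0.11 (0.0513). The block alone left 2101 genes higher, 2871 lower and 6 members lower, and changed no member's call. Same-numbered libraries did not deviate together (correlations -0.0728, -0.0783 and 0.0136). With 3 libraries per group, whether the numbers pair the samples cannot be told from this. Leaving out 1 replicate changed no member's call. The called counts ranged from 1 to 2 for TET partners (1 without replicate 1 of either group), 0 to 1 for base excision (0 without Tespa1-/- replicate 2) and 1 to 2 for readers (2 without Tespa1-/- replicate 3), and the log2 difference of Dnmt3a to Dnmt3b from -0.12 to 0.07. That ratio also turned to 0.07 with 1 added to each FPKM and to 0.53 with the implied length correction, where Uhrf1 to Dnmt1 turned to -0.03, and Tet3 to Tet1 turned to -0.33 with 1 added. The cause was not tested, except that a pseudocount of 1 shrinks genes with a low FPKM such as Tet1. Of the 10 genes Tet1 had the lowest counts.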

Other observations

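A further list of 13 regulators around DNA methylation was written after the data were available, so its values are a description. Of the 13 genes, 5 were higher and 6 lower in Tespa1-/- LSK cells, and the median log2 fold change was 0.00. The Gadd45 genes, which encode stress-induced proteins linked to DNA repair and demethylation, were all higher. Gadd45a was at 29.3, 31.2 and 31.7 CPM in Tespa1+/+ and at 73.9, 71.7 and 76.5 CPM in Tespa1-/- libraries, with no overlap (log2 fold change 1.27, SE 0.05, edgeR adjusted p 2.31e-06). Gadd45g rose by a similar amount (log2 fold change 1.36, edgeR adjusted p 2.11e-05) and Gadd45b less (0.31, edgeR adjusted p 0.0074). After the correction for merged exon length Gadd45a and Gadd45g were both at 1.02, and Gadd45b did not pass (0.04, edgeR adjusted p 0.692).

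Smchd1, a chromatin protein known for silencing on the inactive X chromosome, was at 232, 213 and 211 CPM in Tespa1+/+ and at 131, 129.0 and 136 CPM in Tespa1-/- libraries (log2 fold change -0.73, SE 0.05, edgeR adjusted p 1.33e-05), and at 0.07 after the same correction (edgeR adjusted p 0.198). Trim28, the corepressor of KRAB zinc finger proteins, was at 663 ± 19.3 CPM in Tespa1+/+ and 665 ± 21.8 CPM in Tespa1-/- libraries (SD, n = 3 each), with an edgeR adjusted p of 0.917.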
